A study of Mus musculus with 12 samples.

Results

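The comparison is the deletion of Ezh2 in bone marrow that already carried activated NRas: the 3 G12D_E2-KO libraries were set against the 3 G12D libraries, 6 of the 12 single-cell RNA libraries of the series. The 6 libraries were taken by their genotype labels, and they hold 17143 of the 32701 cells of all 12 libraries once cells found in more than 1 library, by the similarity of their expression, were counted once. Mice of both genotypes carried Mx1-Cre, a recombinase that interferon switches on, and 1 conditional allele of NRas G12D. G12D_E2-KO mice also carried floxed alleles of Ezh2 on both chromosomes (Ezh2 f/f), so Mx1-Cre, the NRas allele and the inducer are shared and the Ezh2 alleles differ. All mice received repeated injections of pIpC, a synthetic double-stranded RNA that induces interferon, at 8 to 12 weeks of age, as the labels give it, where the study's methods give a younger age. Marrow, per the labels that of the femurs and tibias, while the study's methods on cell separation name further bones, was taken at T1 (2 weeks), T2 (2 months) or T3 (4 months) after pIpC, and cells with the surface receptor c-Kit, among which are the blood stem cells and early progenitors, were enriched magnetically. Mx1-Cre responds to interferon in many cell types and is not restricted to blood stem cells. Each genotype and time point is 1 library, and the number of mice behind a library is not given in the sources used here. The p-values therefore rest on the spread left once genotype and time point are fitted, pooled over the 4 genotypes, and its source, mouse, sex, disease stage or library, cannot be told apart.

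Ezh2 is the catalytic subunit of the Polycomb repressive complex PRC2, which methylates a lysine in the tail of histone H3 and so keeps many developmental genes silent in blood cells. A separate complex, PRC1, binds the methylated tail through its Cbx subunits and adds ubiquitin to histone H2A. NRas is a membrane-bound GTPase that passes growth factor signals to the RAF, MEK and ERK kinases, and the G12D form stays in its active, GTP-bound state.

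Cells deposited under G12D T1 were in part the same as those of G12D_E2-KO T1, and this was resolved before any comparison. Of the 5648 cells of G12D T1, 2896 matched a cell of G12D_E2-KO T1, and 2752 were kept. The 6 libraries then held 2412 to 3767 cells and 15.4 to 22.3 M UMIs (unique molecular identifiers, each marking 1 captured RNA molecule, in M for 10 to the power of 6). Mitochondrial genes took 3.86%, 3.87% and 4.25% of the UMIs in G12D and 3.49%, 4.62% and 5.75% in G12D_E2-KO at T1, T2 and T3. The mice also differed in sex at T3. Xist, the X-inactivation RNA of female cells, stood at 1357 CPM (UMIs per M UMIs of the library) in G12D T3, whereas the other 5 libraries reached 0.608 CPM at most. Kit itself, the surface receptor used for the enrichment, stood at 43.5 to 49.2 CPM in G12D and 45.1 to 80.8 CPM in G12D_E2-KO, and late granulocytic cells, which carry little Kit, made up 14.8% to 39.1% of the cells of a library.

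Ezh2 transcripts were lower in G12D_E2-KO at every time point (chromosome 6, 47530139 to 47595341, minus strand; GRCm38 here and below). Ezh2 stood at 86.3, 103 and 81.7 CPM in G12D T1, T2 and T3 and at 20.7, 25.3 and 22.4 CPM in G12D_E2-KO. The groups did not overlap, and the fitted log2 change was -2.07 (SE 0.17, adjusted p = 0.000167). The counts come from the 3′ end of transcripts, and the position of the deleted exons is not given in the sources used here, so the value is a transcript level and not the share of cells with a deletion. Nras (chromosome 3, 103058285 to 103067914, plus strand) stood at 80.3, 67.9 and 65.7 CPM in G12D and 68.1, 59.6 and 76.9 CPM in G12D_E2-KO. These ranges overlapped and the change did not pass the test (log2 -0.16, SE 0.12, adjusted p = 0.571). Counts of Nras do not tell the G12D allele from the normal one.

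**Figure D1:**
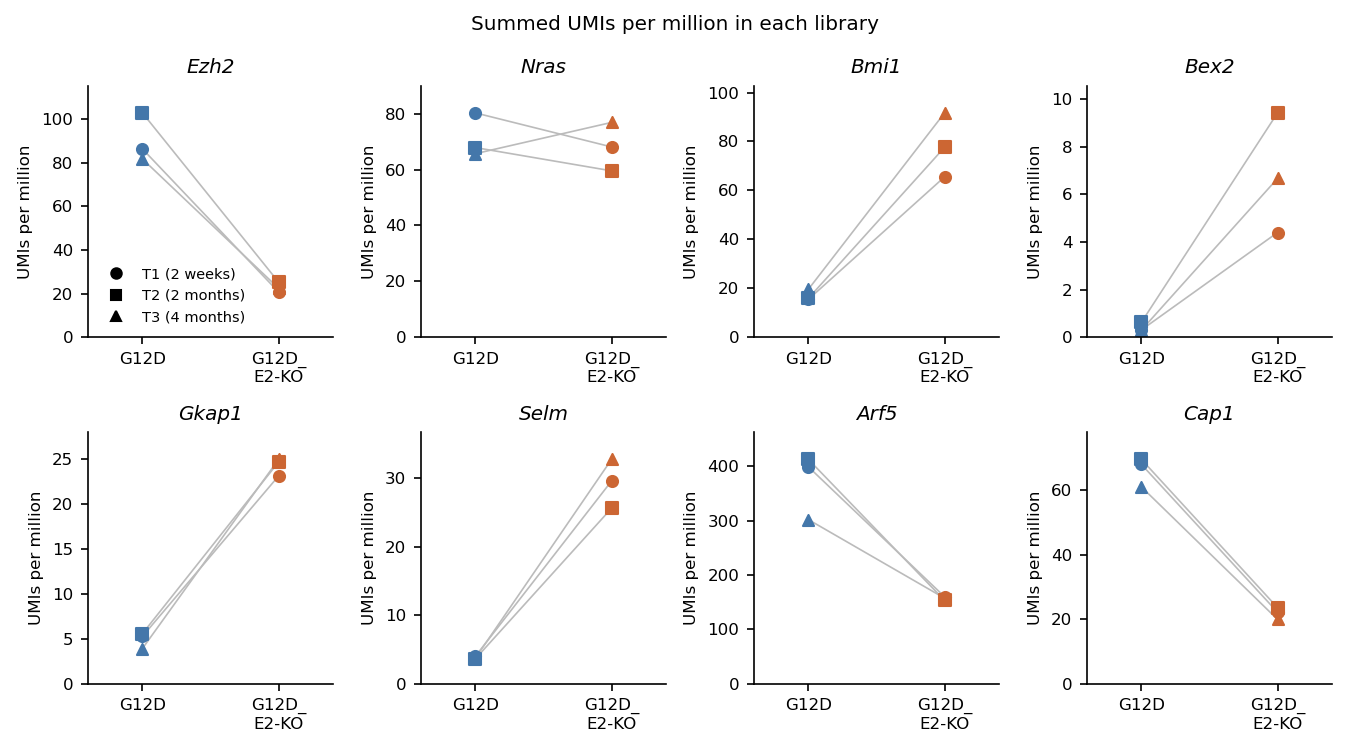
Expression of 8 genes in the 6 libraries, in CPM on the y axis, with G12D and G12D_E2-KO on the x axis. Each point is 1 library and lines join libraries of the same time point. The 2 groups overlap for Nras and do not overlap for Ezh2, Bmi1, Bex2, Gkap1, Selm, Arf5 and Cap1.

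Most genes that changed were higher without Ezh2, and low expression in G12D was more frequent among them than among all genes tested. Of 12848 genes tested over all cells, 175 passed an adjusted p of 0.05, which is 1.36% of the genes tested. Of these, 155 were higher in G12D_E2-KO (1.21%) and 20 were lower (0.156%). All 175 moved the same way at 3 of 3 time points, and in 174 of them the groups did not overlap, as they did not in 1758 of all genes tested (13.7%). The calls rest on these same libraries, so these counts describe the called genes and add no support. Of the 155 higher genes, 124 had a mean under 10 CPM over the 6 libraries and 31 a mean over 10 CPM, and 133 had a log2 change over 1. In G12D alone, 88.4% of the 155 had a mean under 10 CPM and 40% under 1 CPM, where 46% and 12.3% of all genes tested did; a low level in G12D is itself part of the change that was tested, so this is a description. The median log2 change of all genes tested was near 0 (-0.003), and 1906 genes (14.8%) had an unadjusted p under 0.05. The number of calls depended on single libraries. It was 44, 93 and 77 without G12D T1, T2 or T3, and 350, 70 and 238 without G12D_E2-KO T1, T2 or T3. In all, 40 of the 175 genes were called whichever of the 12 libraries was left out. Leaving out T3 of both genotypes, where the sexes differ, gave 243 calls that held 117 of the 175, and a term for sex gave 232 calls that held 139 of them.

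**Figure D2:**
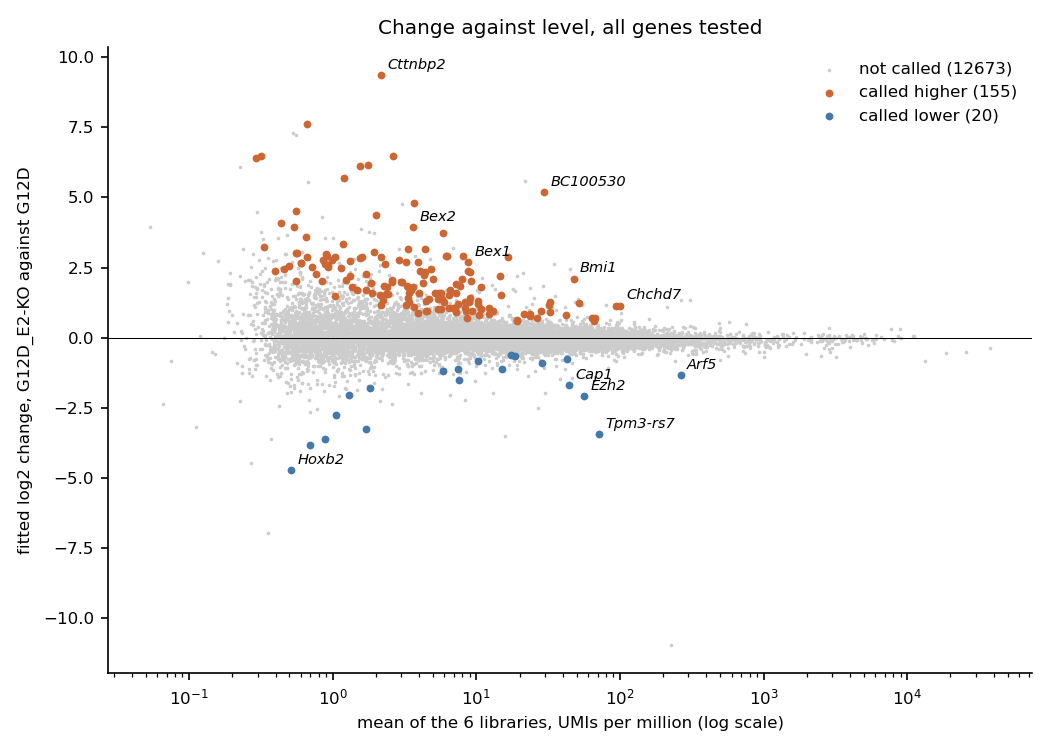
Fitted log2 change of each gene, G12D_E2-KO against G12D (y axis), against its mean expression over the 6 libraries in CPM (x axis, log scale). The 155 genes called higher are orange and lie mostly at low expression, the 20 called lower are blue, and the 12673 other genes tested are grey.

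Among the Polycomb genes, the PRC1 subunit Bmi1 rose while the other PRC2 subunits did not pass the test. Bmi1 (chromosome 2, 18677018 to 18686629, plus strand) stood at 15.5, 15.9 and 19.6 CPM in G12D and at 65.5, 77.6 and 91.7 CPM in G12D_E2-KO. The groups were far apart at all 3 time points (log2 2.11, SE 0.12, adjusted p = 2.52e-05), and the call held with any library left out. Of 20 PRC1 subunits tested, Bmi1 was the 1 called, and the list had a median log2 change of 0.09. Of 11 PRC2 subunits tested, Ezh2 was the 1 called (median 0.06), and 0 of 18 H3K27 demethylases, acetyltransferases and other silencers were called (median 0.10, with 4 at an unadjusted p under 0.05).

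To show what lies before the start of the genes that rose, the 250 bases upstream are printed for 4 of them, with each CG, which reads the same on both strands, in capitals, because CG-dense promoters are the kind PRC2 is known to occupy. The sequences are those of RefSeq on GRCm38.p6. Bmi1 and the neuropeptide gene Npy hold 21 CG each, a count that 31.3% of the 9899 tested genes with a promoter sequence reach, and the stefin genes Stfa2 and Stfa2l1 hold 0, as 1.35% of those promoters do. These 4 promoters were chosen after the values were seen. The RefSeq start of Stfa2 lies 94 bases inside the gene as GENCODE places it, so those bases of the printed Stfa2 window are within the GENCODE gene, while the other 3 starts are the same in both. A count of CG is a description of the letters and says nothing of PRC2 binding, which was not measured here. Promoter sequences were found for 109 of the 155 higher genes (70.3%), 14 of the 20 lower genes (70%) and 77% of all genes tested, so a comparison of composition between these sets is void for lack of coverage.
Bmi1, chr2:18676768-18677017, plus strand: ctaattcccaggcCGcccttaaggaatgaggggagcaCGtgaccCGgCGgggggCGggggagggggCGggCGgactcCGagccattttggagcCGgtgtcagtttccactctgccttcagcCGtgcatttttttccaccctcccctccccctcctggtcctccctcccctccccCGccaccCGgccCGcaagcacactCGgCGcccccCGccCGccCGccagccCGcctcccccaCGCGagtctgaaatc
Npy, chr6:49822460-49822709, plus strand: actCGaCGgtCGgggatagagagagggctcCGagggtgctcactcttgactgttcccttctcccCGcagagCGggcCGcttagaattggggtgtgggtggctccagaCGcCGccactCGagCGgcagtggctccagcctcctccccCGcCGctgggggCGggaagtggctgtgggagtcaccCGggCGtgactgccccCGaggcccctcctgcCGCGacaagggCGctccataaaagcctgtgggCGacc
Stfa2, chr16:36408364-36408613, minus strand: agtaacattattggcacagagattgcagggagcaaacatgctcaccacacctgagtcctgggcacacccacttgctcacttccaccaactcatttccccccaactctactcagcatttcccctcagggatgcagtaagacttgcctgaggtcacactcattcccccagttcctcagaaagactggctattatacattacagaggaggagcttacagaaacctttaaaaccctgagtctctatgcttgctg
Stfa2l1, chr16:36156561-36156810, plus strand: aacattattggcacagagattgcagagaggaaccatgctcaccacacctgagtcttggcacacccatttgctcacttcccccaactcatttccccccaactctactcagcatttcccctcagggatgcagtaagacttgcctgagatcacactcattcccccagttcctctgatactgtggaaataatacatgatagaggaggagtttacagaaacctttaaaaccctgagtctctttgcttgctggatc

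The genes with the strongest increases were close to silent in G12D. In 12 of the 155 higher genes the 3 G12D libraries held 3 or fewer UMIs together, so the fold depends on the counting floor and is given as a bound or with its counting interval. Cttnbp2, a cortactin-binding protein of neurons, was at 0 in all 3 G12D libraries and at 6.51, 2.1 and 4.34 CPM in G12D_E2-KO, at least 80.5-fold higher against a floor of 3 counts over the G12D group (adjusted p = 0.0415). Lin28b, an RNA-binding protein of fetal stem cells that blocks let-7 maturation, was at 0 in G12D and at 1.53, 0.808 and 1.62 CPM in G12D_E2-KO, at least 23.7-fold higher (adjusted p = 0.0185). Rbp4, the plasma carrier of retinol, was at least 11.2-fold higher (adjusted p = 0.0277), and Zswim5 at least 10.3-fold (adjusted p = 0.0302). All 4 were detected in each G12D_E2-KO library and in no G12D library. At 0 in G12D they could pass the filter on low counts only through other genotypes. This detection therefore describes them and adds no support. Each is a call near the threshold: Cttnbp2 was called in 7, Lin28b in 8, Rbp4 in 8 and Zswim5 in 6 of the 12 fits that left out 1 library, and Zswim5 was not called without T3 of both genotypes. Calls were lost without G12D T1, T2 or T3 or G12D_E2-KO T2 for Cttnbp2, Rbp4 and Zswim5, also without E2-KO T2 for Cttnbp2 and Zswim5 and WT T2 for Zswim5, and without E2-KO T2, G12D T1, G12D T3 or G12D_E2-KO T2 for Lin28b. With a library left out the fitted log2 changes ran from 8.54 to 10.1 for Cttnbp2, from 7.10 to 8.16 for Lin28b, from 6.10 to 6.70 for Rbp4 and from 6.18 to 6.70 for Zswim5. For Cttnbp2 those extremes are the fits without G12D_E2-KO T1 and T3.

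Npy, which encodes neuropeptide Y (chromosome 6, 49822710 to 49829507, plus strand), stood at 0.0507, 0.0569 and 0 CPM in G12D and at 1.3, 3.12 and 11.3 CPM in G12D_E2-KO. The group ratio was 126 (95% counting interval 34.4 to 1042, adjusted p = 0.0054), and the call held with any library left out. Its fitted log2 change of 6.48 was 7.08 and 5.55 without G12D T1 or T3 and 7.10 and 5.39 without G12D_E2-KO T1 or T3. Gm12802, an RNA gene of unknown role, stood at 0.0507, 0.0569 and 0 CPM in G12D and at 2.96, 2.05 and 2.07 CPM in G12D_E2-KO (ratio 65.4, interval 17.8 to 546, adjusted p = 0.000798). Syt14, a synaptotagmin, had a ratio of 83.7 (interval 22.8 to 696, adjusted p = 0.0164), and its call was lost without G12D T1, T2 or T3 or G12D_E2-KO T2 (log2 5.35 without G12D T3, 6.73 without G12D T2 and 6.78 without G12D_E2-KO T3). All 3 genes were at 2 UMIs in the G12D libraries together and were detected in every G12D_E2-KO library. With so few UMIs in G12D they could pass the filter on low counts only through other genotypes, so this detection adds no support. Npy varied most among the G12D_E2-KO libraries, with its highest value at T3.

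Other genes rose from a measurable level. Bex2, a small X-linked adaptor protein first known from brain, went from 0.304, 0.626 and 0.297 CPM in G12D to 4.4, 9.43 and 6.67 CPM in G12D_E2-KO (log2 3.93, SE 0.27, adjusted p = 7.21e-05). Its relative Bex4 stood at 19.8, 43.3 and 26.1 CPM against 60.6, 71.1 and 87.8 CPM (log2 1.22, SE 0.25, adjusted p = 0.0466), a call that held only without WT T2, WT T3 or G12D T2 among the 12 fits that left out 1 library (log2 1.01 to 1.61) and was lost with a term for sex, without T3 of both genotypes and with no filter on low counts. Gkap1, a protein that anchors cGMP-dependent kinase, stood at 5.27, 5.58 and 3.92 CPM in G12D and 23.2, 24.7 and 25.0 CPM in G12D_E2-KO (log2 2.21, SE 0.21, adjusted p = 0.000585). In all 3 genes the lowest G12D_E2-KO library lay above the highest G12D library. Bmpr1a, a receptor for bone morphogenetic proteins, rose by 2.93 on the log2 scale (SE 0.36, adjusted p = 0.0033), from 1.47, 1.25 and 3.09 CPM to 13.3, 14.2 and 15.4 CPM. Selm, a selenoprotein of the endoplasmic reticulum, rose by 2.87 (SE 0.29, adjusted p = 0.0011), from 4.01, 3.64 and 3.74 CPM to 29.6, 25.6 and 32.8 CPM. Spats2 rose by 4.39 (SE 0.48, adjusted p = 0.0011), and by 5.89 without G12D T2. Bex2, Gkap1, Bmpr1a, Selm and Spats2 were called with any library left out.

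The 10 largest fitted increases included 3 members of the stefin A family, inhibitors of cathepsin-type cysteine proteases that lie in a cluster on chromosome 16 and are abundant in granulocytes. Of 6 stefin A genes tested, 5 were called higher, 0 lower, and all 6 lay above 0, with a median log2 change of 4.27 against -0.003 for all genes. Over all genes tested, 1.21% were called higher and 0.156% lower. A filter on low counts decided which genes were tested. Members near 0 in G12D could pass it through their high G12D_E2-KO values. The counts and the median therefore describe these genes and add no support. BC100530 stood at 1.01, 1.14 and 1.78 CPM in G12D and at 98.3, 17 and 57.9 CPM in G12D_E2-KO (log2 5.19, SE 0.62, adjusted p = 0.00688). Gm5483 went from 0.406, 0.0569 and 0.178 CPM to 6.78, 1.19 and 13.5 CPM (log2 4.79, SE 0.46, adjusted p = 0.000585). Within G12D_E2-KO both were lowest at T2, and even those T2 values lay above all G12D libraries. Both calls held with any library left out, though the log2 change of BC100530 was 4.52 without G12D_E2-KO T1, and that of Gm5483 was 5.41 and 4.05 without G12D_E2-KO T1 or T3. Without T3 of both genotypes BC100530 was not called. Stfa2 (chromosome 16, 36403992 to 36408457, minus strand) stood at 0.0507, 0.0569 and 0 CPM in G12D and 4.98, 0.7 and 4.86 CPM in G12D_E2-KO (ratio 95.7, interval 26.1 to 796, adjusted p = 0.00209). Stfa2l1 (chromosome 16, 36156811 to 36161953, plus strand) had a log2 change of 3.07 (SE 0.47, adjusted p = 0.0144) and went from 0.608, 0.171 and 0.297 CPM to 3.86, 0.862 and 5.9 CPM. The Stfa2 call was lost without G12D T1 (log2 5.46 without G12D T3, 7.03 without G12D T2 and 6.79 without G12D_E2-KO T2) and the Stfa2l1 call without G12D T1 or T3 (log2 2.48 to 3.35, the lowest without G12D_E2-KO T3). Stefin A genes are near copies of each other (the printed promoters of Stfa2 and Stfa2l1 share a run of 65 bases), so UMIs can be assigned to the wrong member and values of single members are uncertain. Of the other granule and neutrophil lists 0 members were called. The primary granule list had a median of -0.13 over 14 genes, the secondary and tertiary granule list -0.49 over 18 genes with 2 above 0, the S100 list -0.22 over 8 genes and the neutrophil receptor list -0.14 over 22 genes. Over those 4 lists 2, 2, 0 and 3 genes had an unadjusted p under 0.05.

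Homeobox genes are the classic targets of Polycomb silencing, and a small set of them moved here. Of 14 Hox and Meis genes tested, counted with partner genes, 3 were higher and 1 was lower, with a median log2 change of 0.39 and 10 above 0. Over all genes tested, 1.21% were called higher, 0.156% lower, and 49.7% lay above 0. Pbx3, a homeodomain protein that binds DNA together with Hox proteins, stood at 3.6, 4.04 and 2.67 CPM in G12D and 12.8, 16.5 and 15.9 CPM in G12D_E2-KO (log2 2.02, SE 0.24, adjusted p = 0.00193), a call that held with any library left out. Hoxa10 stood at 1.27, 0.569 and 0.831 CPM against 2.65, 2.48 and 3.56 CPM (log2 1.59, SE 0.33, adjusted p = 0.0407), and it was called in 3 of 12 fits that left out 1 library (log2 1.38 to 1.95; any 1 of the 6 libraries, WT T2, E2-KO T1 and E2-KO T2 each ended the call). Hoxb2 went the other way, from 0.761, 0.854 and 1.37 CPM to 0.0449, 0 and 0.0648 CPM, a ratio of 0.0363 (interval 0.00428 to 0.138, adjusted p = 0.0223). The Hoxb2 call was lost without G12D T1 or T2, without G12D_E2-KO T2 or T3 (log2 -5.34 to -4.43, with -5.34 both without G12D T3 and without G12D_E2-KO T1) and with a term for sex, as the Hoxa10 call was. Of 8 developmental regulators outside blood that were expressed enough to test, 0 were called, with 2 at an unadjusted p under 0.05 (median 0.07).

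A few single fetal and imprinted genes were called higher. Of 11 fetal and oncofetal genes tested, 3 were higher and 0 lower (median 0.29). They were Lin28b, Hmga2, a chromatin protein of fetal stem cells, and Plagl1, an imprinted zinc finger protein. Of 17 imprinted genes tested, Plagl1 and Peg10 were higher and 0 were lower (median 0.36), and Plagl1 is counted on both lists. Over all genes tested, 1.21% were called higher and 0.156% lower, with a median of -0.003. Hmga2 stood at 4.87, 1.76 and 2.2 CPM in G12D and 14.1, 18.1 and 11.8 CPM in G12D_E2-KO (log2 2.37, SE 0.44, adjusted p = 0.0307). Peg10, a retrotransposon-derived placental gene, had a ratio of 21.2 (interval 5.52 to 180, adjusted p = 0.015). The Hmga2 call was lost without E2-KO T2, any 1 of the G12D libraries, or G12D_E2-KO T2 or T3 (log2 1.91 to 2.75), and with a term for sex. The Peg10 call was lost without any 1 of the G12D libraries or G12D_E2-KO T2 (log2 3.44 to 4.56, the lowest without G12D T3), and the Plagl1 call (log2 2.57, adjusted p = 0.0498) in each of the 12 fits that left out 1 library. Without T3 of both genotypes Hmga2, Peg10 and Hoxa10 were not called.

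Of the 20 lower genes, Tpm3-rs7 has an uncertain count, since it is a copy of the tropomyosin gene Tpm3 and reads can be assigned to either. It stood at 123, 172 and 94.8 CPM in G12D and 14.4, 11.3 and 11.7 CPM in G12D_E2-KO (log2 -3.43, SE 0.56, adjusted p = 0.0276). Tpm3 itself stood at 164, 68 and 127 CPM against 252, 166 and 178 CPM, and the sum of both at 287, 241 and 222 CPM against 267, 177 and 189 CPM, so the copies stood in opposite order while their sum overlapped between the groups. The Tpm3-rs7 call was lost without any 1 of the 6 libraries (log2 -3.63 to -3.21), with a term for sex and without T3 of both genotypes. Without NRas G12D its level stood the other way at T1 and T2, at 11.2, 10.1 and 11.1 CPM in WT and 71.6, 74.3 and 9.18 CPM in E2-KO. Across the 12 libraries the level of Tpm3-rs7 thus did not follow the Ezh2 genotype. The actin regulator Cap1 (chromosome 4, 122859047 to 122886056, minus strand) fell by 1.69 on the log2 scale (SE 0.12, adjusted p = 8e-05), from 67.9, 69.5 and 61 CPM to 22.1, 23.5 and 19.9 CPM. Arf5, a GTPase of vesicle traffic that was chosen after its values were seen, stood at 399, 413 and 302 CPM in G12D and 160, 153 and 157 CPM in G12D_E2-KO (log2 -1.32, SE 0.13, adjusted p = 0.000585). Cap1 and Arf5 did not overlap between the groups and were called with any library left out. C1qtnf6, a secreted C1q family protein, stood at 3.14, 2.79 and 3.21 CPM against 0.269, 0.108 and 0.713 CPM (log2 -3.26, adjusted p = 0.0199). Cd1d2, a lipid-presenting molecule, fell by 2.75 (adjusted p = 0.0171) and Gm9726 by 3.83 (adjusted p = 0.0125). These last 3 calls were lost without G12D_E2-KO T2, C1qtnf6 also without G12D T1 or T3, Cd1d2 without G12D T2 or T3 and Gm9726 without G12D T1 or T2 (log2 -3.84 to -2.78, -3.15 to -2.32 and -4.34 to -3.18, the last without G12D_E2-KO T1).

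Platelet and megakaryocyte genes tended to higher values without Ezh2, most of all at T3. Of 28 platelet genes tested, 4 were called higher (Vwf, Serpine2, Rab27b and Pdgfb) and 0 lower, 26 lay above 0, 22 had an unadjusted p under 0.05, and the median log2 change was 1.28 against -0.003 for all genes. Over all genes tested, 1.21% were called higher, 49.7% lay above 0 and 14.8% had an unadjusted p under 0.05. Vwf, the von Willebrand factor that tethers platelets, stood at 2.69, 3.93 and 3.15 CPM against 6.91, 8.08 and 10.8 CPM (log2 1.29, SE 0.21, adjusted p = 0.0123). Serpine2, a protease inhibitor stored in platelets, stood at 14.9, 18.9 and 18.7 CPM against 27.5, 41.6 and 72.7 CPM (log2 1.27, SE 0.21, adjusted p = 0.0123). In both genes the G12D_E2-KO libraries lay above all G12D libraries, and T3 was the highest. Rab27b, a GTPase of granule release, rose by 1.51 (adjusted p = 0.0289). The Vwf call was lost without G12D T1 or T3 or G12D_E2-KO T2 (log2 1.16 to 1.47), the Serpine2 call without any 1 of the G12D libraries (log2 0.93 to 1.45), and the Rab27b call without WT T2, E2-KO T2, any 1 of the G12D libraries, or G12D_E2-KO T2 or T3 (log2 1.14 to 1.89). Without T3 of both genotypes Rab27b was not called. Genes more particular to platelets did not pass the test. Pf4, platelet factor 4, stood at 102, 164 and 140 CPM in G12D and 155, 365 and 682 CPM in G12D_E2-KO, and Itga2b, the CD41 integrin, at 4.82, 6.32 and 8.13 CPM against 6.73, 17.3 and 65.1 CPM.

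Cells of a megakaryocytic class were most numerous in G12D_E2-KO T3, the library with the highest Vwf, Serpine2, Pf4 and Itga2b values, though their share did not pass the test (edgeR adjusted p = 0.281). Over all cells of a library, more cells of a type and more RNA per cell cannot be told apart. Cells were therefore given a class from their nearest WT cell, in classes called X-like from marker genes: hematopoietic stem cell and multipotent progenitor-like (HSC/MPP), granulocyte-macrophage progenitor and early granulocyte-like (GMP/early GN), late granulocyte-like (Late GN), promonocyte-like (ProMo), megakaryocyte-erythroid progenitor-like (MEP), megakaryocyte-like (Meg), early and late erythroid-like (EryP/early Ery, Late Ery), basophil and mast cell-like (Baso/mast), and B lymphoid-, T/NK-, dendritic- (DC) and macrophage-like. Meg cells made up 1.53%, 2.45% and 1.29% of the cells in G12D and 1.61%, 3.37% and 9.78% in G12D_E2-KO at T1, T2 and T3. The summed level of 13 Meg markers was 153, 220 and 199 CPM against 234, 572 and 1054 CPM, 4 of the 13 were called higher, and none was at 0. The part of this share in the platelet gene values was not tested over all cells. Within the Meg class, 1 of 23 platelet genes tested was called, and the median log2 change was 0.57 with 20 above 0. Over all 5211 genes tested in that class 0.384% were called and 49.1% lay above 0. That gene was Gng11, a G protein subunit named after its value was seen, at 130, 115 and 129 CPM in G12D and 165, 295 and 397 CPM in G12D_E2-KO (log2 1.13, adjusted p = 0.0168). Within that class Pf4 stood at 6632, 7652 and 8850 CPM in G12D and 9258, 10780 and 7121 CPM in G12D_E2-KO, values that overlapped (log2 0.15, adjusted p = 0.868). Serpine2 was called higher in GMP/early GN, Late GN and ProMo and was not among the Meg calls, so its rise is not particular to Meg cells.

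**Figure D3:**
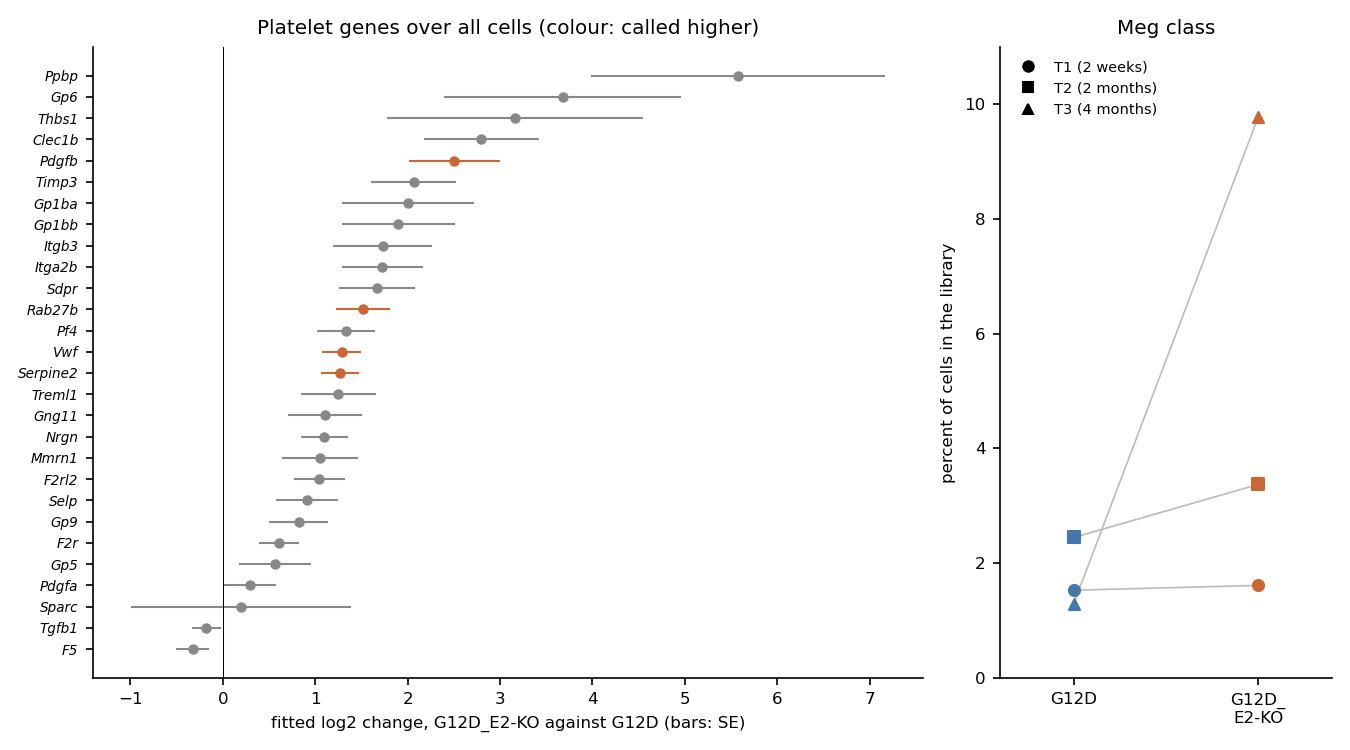
Left, fitted log2 change of the 28 platelet genes over all cells, with bars of 1 SE and colour for the 4 called genes; 26 of 28 lie above 0. Right, the share of Meg cells in percent of the cells of each library, with 9.78% in G12D_E2-KO T3 the highest.

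No class share passed the test. Of 13 classes tested with edgeR on cell numbers, 0 were called (smallest adjusted p = 0.281), and 1 class, Meg, had an unadjusted p under 0.05 (log2 1.27, SE 0.56, edgeR adjusted p = 0.281). With limma on logit shares 0 were called and 0 had an unadjusted p under 0.05. The magnetic enrichment for c-Kit can itself set such shares. ProMo cells were fewer in G12D_E2-KO at 3 of 3 time points, at 12.0%, 7.13% and 13.01% in G12D and 7.23%, 6.88% and 6.11% in G12D_E2-KO (edgeR adjusted p = 0.281). MEP and Baso/mast cells were more numerous at 3 of 3 (edgeR adjusted p = 0.281 each). The MEP class rests on 1 WT cluster with 5 of 10 markers raised. Csrp3 and Gata2, among its leading genes, are also on the basophil and mast cell gene list. At clustering resolution 1 no cluster was named MEP, and a Baso/mast cluster was led by Prss34, Csrp3, Apoe and Gata2 among others. The split of MEP from Baso/mast thus depends on the resolution. Late GN cells stood at 33.9%, 33.0% and 37.2% in G12D and at 39.1%, 22.6% and 14.8% in G12D_E2-KO, and HSC/MPP cells at 8.07%, 4.56% and 6.27% against 7.92%, 10.2% and 7.18%, with overlap in both. In G12D_E2-KO T3, B lymphoid cells were 0 of 2617, which allows a share of up to 0.115%, where G12D T3 held 1.57%.

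Within classes, Ezh2 was lower and Bmi1 higher in every class that could be tested. The test was repeated on the UMIs of each of the 9 classes that held 20 or more cells in each of the 6 libraries, and 1006 pairs of class and gene were called, 657 higher and 349 lower, over 687 genes. Of these genes, 576 were not called over all cells and 502 were called in 1 class. The share of tested genes that was called was 2.8% in Late GN (248 of 8855), 2.75% in ProMo (243 of 8834), 2.64% in GMP/early GN (262 of 9935), 1.4% in EryP/early Ery (140 of 9970) and 0.839% in Late Ery (44 of 5243). It was 0.576% in Baso/mast (23 of 3995), 0.384% in Meg (20 of 5211), 0.29% in MEP (13 of 4486) and 0.161% in HSC/MPP (13 of 8082). Baso/mast, Meg, MEP and HSC/MPP held 0.187 to 1.55 M UMIs per library and Late Ery 0.346 to 1.51 M. The total of 1006 was 395, 393 and 479 without G12D T1, T2 or T3 and 1337, 549 and 1256 without G12D_E2-KO T1, T2 or T3. How single genes within classes fared in those fits is not reported here. In Late GN the leading cluster differed between the genotypes, with 22.6% of the G12D cells in a cluster led by Ifitm6 and Ly6g and 22.0% of the G12D_E2-KO cells in a cluster led by Ear2 and Pirb. In EryP/early Ery it differed too (28.2% and 33.3% in the leading clusters).

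Ezh2, Bmi1 and Tpm3-rs7 were called in all 9 classes, though the count of Tpm3-rs7 is uncertain and did not follow the Ezh2 genotype in WT and E2-KO, as given above. The Ezh2 log2 change ran from -1.47 in Late Ery to -2.37 in ProMo, and that of Bmi1 from 1.47 in Meg to 4.45 in Late Ery. In Late Ery Bmi1 stood at 3.16, 2.75 and 0 CPM of the class in G12D (3, 2 and 0 UMIs) and 59.7, 37.3 and 40.4 CPM in G12D_E2-KO. Chchd7, a mitochondrial protein, and Arf5 were called in 8 classes, Chchd7 higher and Arf5 lower, both chosen after their values were seen. Over all cells Chchd7 stood at 54.1, 64.8 and 59.4 CPM in G12D and 116, 153 and 153 CPM in G12D_E2-KO (log2 1.14, SE 0.13, adjusted p = 0.00157). Bex4 was higher in 7 classes and Mt1, the metal-binding metallothionein, in 6. Xist was called lower in 6 classes, and these calls are among the 349 lower pairs. Over all cells it was high in G12D T3 alone of the 6 libraries, where the sexes differ. No fit within classes had a term for sex or left out T3 of both genotypes. Mt1 did not pass over all cells (log2 0.56, adjusted p = 0.11), while in HSC/MPP it rose by 2.16 (SE 0.25, adjusted p = 3.35e-05), from 21.1, 21.1 and 40.4 CPM to 74.3, 76.8 and 284 CPM. The related Mt2 stood at 57.3, 49.1 and 20.7 CPM in MEP of G12D and 220, 182 and 449 CPM in G12D_E2-KO (log2 2.76, adjusted p = 2.83e-06).

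**Figure D4:**
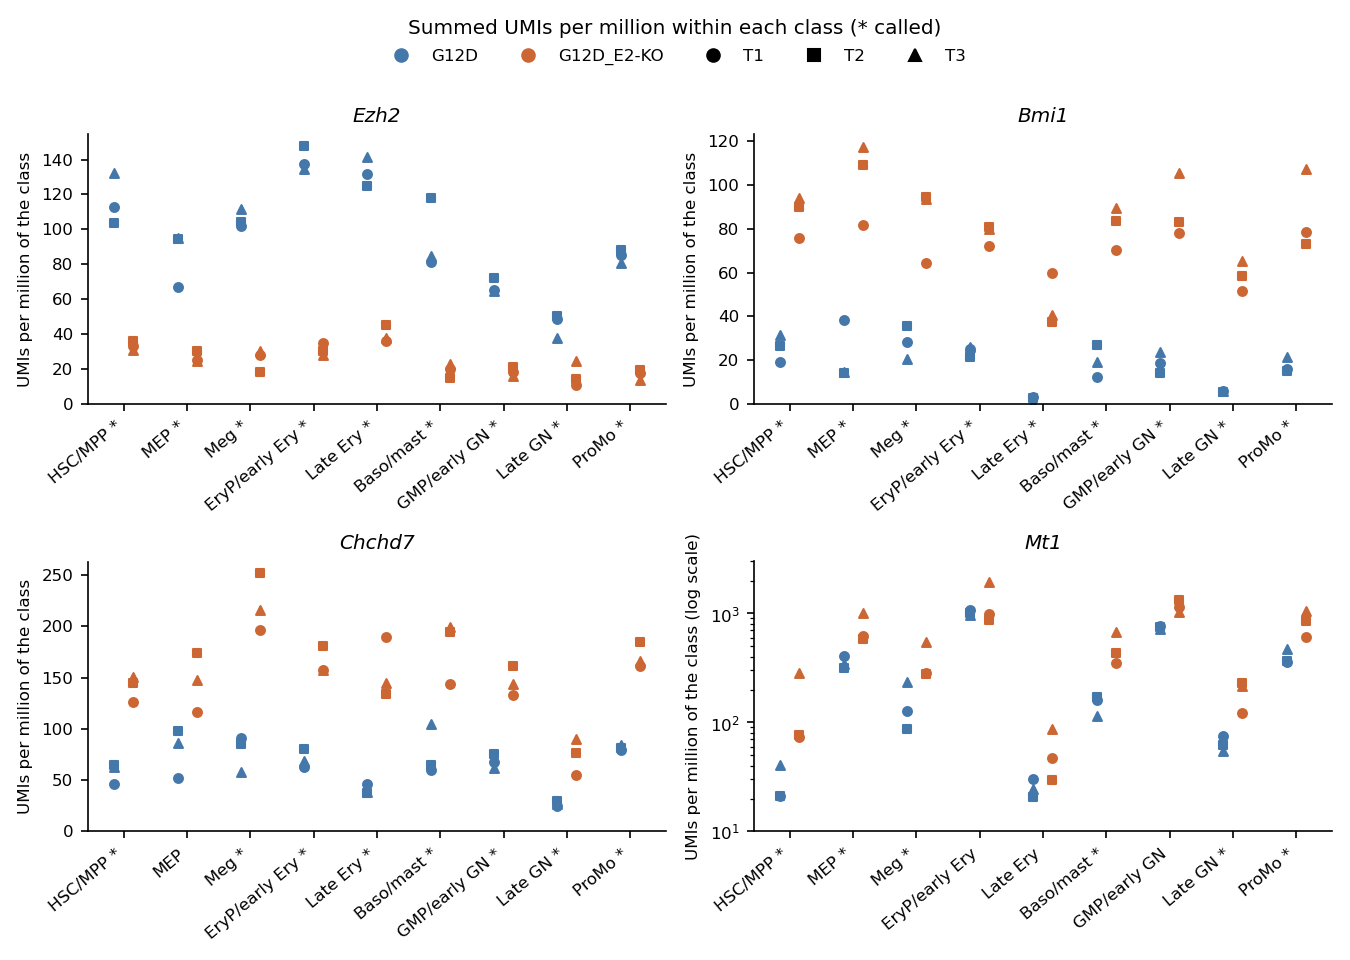
Expression of Ezh2, Bmi1, Chchd7 and Mt1 in the 9 classes tested (x axis), in CPM of the UMIs of the class on the y axis, with a log axis for Mt1. Points are libraries, coloured by genotype, and a star marks a class in which the gene was called; Ezh2 is lower and Bmi1 higher in all 9.

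Genes that were called in 1 or a few classes are described next, class by class. In HSC/MPP, the stem cell class, 7 genes were higher and 6 lower. Bex2 stood there at 2.19, 5.26 and 1.01 CPM in G12D and 12.4, 25.2 and 12.4 CPM in G12D_E2-KO (log2 2.61, adjusted p = 0.0291). Pdgfrb, a platelet-derived growth factor receptor, stood at 25.5, 17.6 and 27.3 CPM against 46.8, 53.6 and 109 CPM (log2 1.44, SE 0.27, adjusted p = 0.0204). In both genes the groups did not overlap. In Meg cells, Npy was at 0 in all 3 G12D libraries and at 58.9, 94.5 and 120 CPM in G12D_E2-KO (adjusted p = 2.89e-06). Sapcd1 rose in MEP, from 33.4, 14 and 35.5 CPM to 186, 212 and 454 CPM (log2 3.35, adjusted p = 0.0203), and in Meg (log2 1.86, adjusted p = 0.00759). In Late Ery, Syt14 rose from 1.05, 0 and 0 CPM to 42.4, 35.8 and 75 CPM (ratio 92.6 on 1 UMI in G12D, counting interval 16.3 to 3688, adjusted p = 2.02e-06). Homer2, a scaffold protein of synapses, rose there from 0 in all 3 to 23.2, 14 and 2.89 CPM (adjusted p = 0.0013). Those values are 35, 9 and 1 UMIs, at least 12.3-fold higher against the floor of 3 counts. In Baso/mast, Hmga2 rose from 9.06, 10.7 and 3.86 CPM to 62.9, 44.3 and 43.8 CPM (log2 2.66, SE 0.54, adjusted p = 0.0106), and Igfbp7, a secreted binding protein of insulin-like growth factors, rose by 2.46 (adjusted p = 0.00541).

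In the granulocytic and monocytic classes the calls went both ways, with 161 higher and 101 lower in GMP/early GN, 157 and 91 in Late GN, and 136 and 107 in ProMo. In Late GN, Gkap1 went from 0.424, 0.279 and 0.521 CPM to 20.9, 20.1 and 18.9 CPM (log2 5.33, SE 0.36, adjusted p = 6.11e-09). In HSC/MPP Gkap1 stood at 11.7, 19.3 and 9.1 CPM against 18.6, 25.2 and 19.8 CPM and was not called, and the difference between the classes was not tested. Of the 5 stefin A genes tested in Late GN, 3 were called higher, among them BC100530 from 3.6, 5.02 and 7.3 CPM to 275, 73.8 and 578 CPM (log2 5.46, adjusted p = 0.0178) and Gm5483 from 0.212, 0 and 0.261 CPM to 18.1, 6.81 and 131 CPM (ratio 172 on 2 UMIs in G12D, counting interval 47.1 to 1425, adjusted p = 8.1e-09). In ProMo, Bmpr1a rose from 0 in all 3 libraries to 8.86, 12.9 and 14.7 CPM (adjusted p = 1.27e-07).

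Further genes of these classes were chosen after their values were seen. Lpl, the lipoprotein lipase that releases fatty acids from plasma lipids, stood in ProMo at 8.89, 12.8 and 8.87 CPM in G12D and 53.1, 84.8 and 75.7 CPM in G12D_E2-KO (log2 2.72, SE 0.22, adjusted p = 3.69e-10). Ccl9, a chemokine, was lower in GMP/early GN, at 192, 153 and 181 CPM against 45.1, 60.7 and 65.5 CPM (log2 -1.72), in ProMo (log2 -1.65) and in Baso/mast (log2 -1.49). Cd27, a costimulatory receptor of the tumour necrosis factor family, was lower in Baso/mast, GMP/early GN, Meg and ProMo. Cdkn2a, which encodes the cell cycle inhibitors p16Ink4a and p19Arf and is a known Polycomb target, stood in Late GN at 0.636, 0.279 and 0.521 CPM in G12D and 11.3, 8.85 and 3.15 CPM in G12D_E2-KO (log2 3.88, SE 0.54, adjusted p = 0.000411). These values rest on 3, 1 and 2 UMIs in G12D and 74, 26 and 4 in G12D_E2-KO. Over all cells Cdkn2a was not called (adjusted p = 0.135), and 0 of 15 CDK inhibitors and p53 targets were, with 5 at an unadjusted p under 0.05 (median 0.07). The protease gene Prtn3 was higher in Late GN, at 330, 308 and 334 CPM against 766, 858 and 970 CPM (log2 1.22, adjusted p = 0.000241), and Ly6g, a surface protein of neutrophils, was lower, at 512, 342 and 421 CPM against 391, 181 and 183 CPM (log2 -0.94, adjusted p = 0.0322). The Late GN cluster led by Ifitm6 and Ly6g held 22.6% of the class in G12D and 16.5% in G12D_E2-KO. The part of the mix of clusters in these changes was not tested. Of 14 primary granule genes tested in Late GN, Prtn3 and Serpinb1a were called higher and Srgn lower, with 8 above 0 (median 0.37). Ly6g was the 1 called of 22 neutrophil and inhibitory surface receptors, of which 11 lay above 0 (median -0.0014), and of 18 secondary and tertiary granule genes 0 were called and 4 lay above 0 (median -0.40). Pf4 was called higher in EryP/early Ery (3.47, 4.47 and 5.84 CPM against 9.95, 15.5 and 18.6 CPM) and in ProMo; Meg cells were most numerous in G12D_E2-KO T3, and the part of free RNA from them was not tested.

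Signalling and lineage programs gave few calls. Over all genes tested, 1.36% were called, 49.7% lay above 0 and 14.8% had an unadjusted p under 0.05. Of 22 hematopoietic cytokine receptors tested, 2 were called higher, Pdgfrb among them (median 0.34). Over all cells Pdgfrb stood at 4.56, 3.19 and 4.81 CPM in G12D and 6.69, 9.27 and 16 CPM in G12D_E2-KO (log2 1.21, SE 0.23, adjusted p = 0.029), a call lost without E2-KO T2, any 1 of the G12D libraries, or G12D_E2-KO T2 or T3 (log2 0.956 to 1.502). Pdgfb, its ligand, which was also on the platelet list, was the 1 called of 17 fibrosis and megakaryocyte cytokine genes (log2 2.50, adjusted p = 0.0302, median of the list -0.05), a call lost without those libraries and without WT T2 or E2-KO T1 (log2 2.08 to 2.85). Of 30 RAS genes and regulators 0 were called, with 5 at an unadjusted p under 0.05 (median 0.11). Of 19 genes that report ERK output, 18 lay above 0, 4 had an unadjusted p under 0.05 and 1 was called (median 0.24). That gene was Egr1, an immediate early transcription factor, at 0.203, 0.228 and 0.237 CPM in G12D and 0.763, 0.862 and 2.27 CPM in G12D_E2-KO (log2 2.28, SE 0.42, adjusted p = 0.0237), a call lost without any 1 of the G12D libraries or G12D_E2-KO T2 or T3 (log2 1.99 to 2.44). Egr1 was also the 1 call among 19 immediate early genes (median -0.01) and among 21 myeloid transcription factors (median -0.06). Pdgfrb, Pdgfb and Egr1 were not called with a term for sex or without T3 of both genotypes. Bik, a pro-apoptotic BH3 protein, was the 1 call among 20 apoptosis regulators (median 0.06). Bik stood at 0.254, 0.626 and 0.119 CPM against 3.1, 1.62 and 1.17 CPM (log2 2.48, SE 0.51, adjusted p = 0.0401), a call that held only without WT T2, WT T3, G12D T2 or G12D_E2-KO T3 among the 12 fits that left out 1 library (log2 1.92 to 3.25, the highest without G12D T2).

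Of the 17 genes that the study named, a list picked with these samples in view, Hmga2 and Pdgfrb were called and 12 lay above 0 (median 0.53). Over all genes tested, 1.36% were called and 49.7% lay above 0. Gata2, a transcription factor of stem cells, stood at 15.8, 13.5 and 24 CPM in G12D and 19.4, 29.9 and 69.5 CPM in G12D_E2-KO (log2 0.94, adjusted p = 0.0791). Gem, a small GTPase, stood at 5.88, 1.14 and 4.99 CPM against 3.81, 7.38 and 39.9 CPM (log2 1.64, adjusted p = 0.319), and Flt3, a receptor tyrosine kinase of progenitors, had a log2 change of 0.50 (adjusted p = 0.608). In Gata2 and Gem the groups overlapped, and the highest value was G12D_E2-KO T3. The remaining lists had 0 calls over all cells, each with a median between -0.68 and 0.52. They were globin genes, haem synthesis and iron genes, B lymphoid genes, MHC class II genes, interferon response genes, basophil and mast cell genes, S phase genes, mitosis genes, clustered histones, branched-chain amino acid metabolism, glycolysis, heat shock proteins, and metallothioneins and stress genes. In those lists 0 to 5 genes had an unadjusted p under 0.05. The interferon list had a median of -0.18 over 42 genes, and Isg15, an interferon-induced ubiquitin-like protein, stood at 55.3, 28.3 and 125 CPM in G12D and at 160, 32.6 and 2.2 CPM in G12D_E2-KO. Within classes the median of the interferon list ran from -0.69 in Baso/mast (2 of 11 above 0) to 0.80 in Late GN (27 of 32 above 0). In HSC/MPP it was -0.56, with 1 of 33 above 0. In these classes 0 members were called.

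The same deletion without NRas G12D, E2-KO against WT, was compared through the difference of the 2 effects in 1 fit. These 4 groups share no library, but Mx1-Cre is absent from WT and present in E2-KO, so on that background the recombinase and the deletion cannot be told apart. Of the 155 genes higher here, 138 (89.0%) also had a higher fitted value in E2-KO than in WT, of the 20 lower genes 15 (75%) had a lower one, and over all genes tested the sign was shared in 71.4%. The median log2 change of the 155 was 1.85 here and 1.22 in E2-KO against WT, and that of the 20 was -1.60 and -0.63; the genes were called here, which by itself favours the larger value here. The difference itself passed the test for 12 genes (0.0934% of those tested), and 461 had an unadjusted p under 0.05. Between 0 and 34 genes were called when 1 of the 12 libraries was left out, with 0 without WT T1, WT T2, E2-KO T2, G12D T1 or G12D T3, 2 without WT T3, 4 without E2-KO T1 or G12D T2, 5 without G12D_E2-KO T2, and 34 and 17 without G12D_E2-KO T1 or T3.

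In several of these 12 genes the G12D libraries stood apart from the other 3 genotypes. Selm stood at 14.2, 22.9 and 16.8 CPM in WT and 11.5, 29 and 18.8 CPM in E2-KO, all above the 3.64 to 4.01 CPM of G12D (difference log2 2.78, SE 0.39, adjusted p = 0.0459). Cap1 was at 21.8, 18.3 and 16.4 CPM in WT, at the level of G12D_E2-KO, and its high values were those of the G12D libraries (difference -1.13, SE 0.18, adjusted p = 0.0469). The stefin genes Gm5483 and Stfa2l1 were at no more than 0.535 CPM in WT and, but for 0.0526 CPM of Gm5483 in E2-KO T1, at 0 in E2-KO. Each of the 12 calls was kept in 1 to 7 of the 12 fits that left out 1 library.

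**Figure D5:**
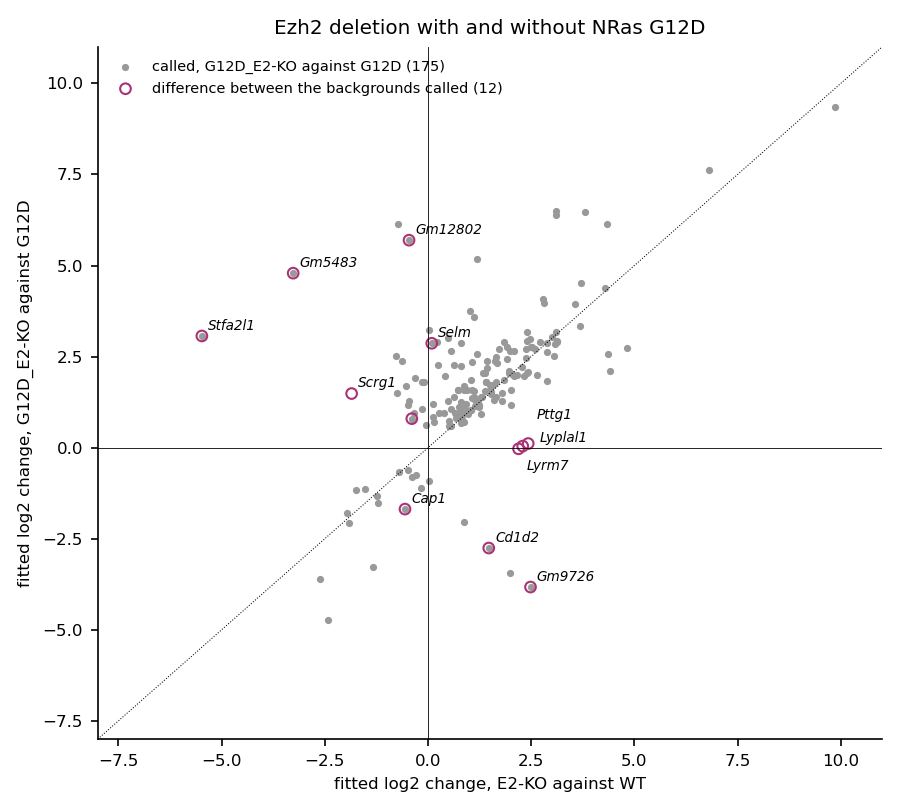
Fitted log2 change of the 175 called genes in E2-KO against WT (x axis) and in G12D_E2-KO against G12D (y axis). The 12 genes whose difference passed the test are circled. Of these, Pttg1, Lyrm7, Lyplal1 and Scrg1 are not among the 175. Most other points lie in the quadrants of like sign.

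Called genes were also counted by their distance from Ezh2, since the floxed allele is inherited with the DNA around it. Within 20 Mb of Ezh2, 6 of 173 genes tested were called (3.47%, 5 higher and 1 lower, Ezh2 left out), against 1.499% of 467 genes on the rest of chromosome 6 and 1.32% of all 12565 other genes with a position. The 6 were Arf5, Smo, Npy, Hotairm1, Hoxa10 and Plekha8, named for their position, and neither this difference of shares nor the part of the DNA inherited with the allele was tested.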

How the data were processed

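The deposited values are raw counts. According to their methods, the authors aligned each library to mouse mm10 with Cell Ranger and made tables of UMIs per gene and cell, after removing cells with a high mitochondrial share and cells that Scrublet scored as doublets; no further doublet caller was run. The members and gene lists were chosen with earlier results of these data known.

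Cells of G12D T1 that also stood in G12D_E2-KO T1 were found by the cosine of the square root of UMIs over genes ranked 301 to 8300 by abundance. Cells above 0.9 were removed from G12D T1; the lowest matched cell had 0.910, the highest other cell 0.893, and the other 65 pairs of libraries had 0 matches. Raw UMIs were the scale first set for this comparison. On them a few abundant genes dominate, and all 65 other pairs held matches. The square root was therefore taken for the main result, a choice made after seeing the data. Raw UMIs, by which 2919 cells of G12D T1 matched, were kept as the alternative.

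UMIs were summed per library and tested with edgeR 4.0.16 (R 4.3.3): TMM, filterByExpr and the robust quasi-likelihood test over all 12 libraries, with genotype and time point as terms. Two-sided p-values were adjusted after Benjamini and Hochberg over all genes of a comparison (threshold 0.05). The tests were checked on simulated data. Floors and intervals (95%, exact) cover counting error only, with a floor of 3 counts over the group. WT cells were clustered (scanpy 1.11.5, leidenalg 0.10.2, resolution 2), clusters were named from marker lists, and 3 of 29 clusters stayed unnamed. Other cells took the class of the nearest WT cell; with 1 WT library held back at a time, 96.3% of WT cells kept their class. Class cell numbers were tested with edgeR and, as an alternative, limma 3.58.1 on logit shares. DESeq2 1.42.0 was an alternative for genes. Positions are those of GENCODE on GRCm38, of which mm10 is the other name.

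Named genes were Ezh2, Nras, the 10 largest increases and decreases called the same way at 3 of 3 time points (sex-linked Xist, Tsix and Y genes left out), the genes the study named, up to 4 called members of each list or else its 2 most abundant, the genes with a called difference between backgrounds up to 10 by smallest p, and the 3 largest called increases and decreases in each class. Other genes are said to be chosen after their values were seen, and results for a few genes are not reported here.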

Additional observations from a re-analysis of the deposited data

Results flagged for a closer look

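In 12 genes the change with loss of Ezh2 on the G12D background differed from that on the normal NRas background by the test of the difference (edgeR, Benjamini-Hochberg adjusted). The value given is the log2 change in G12D_E2-KO against G12D minus that in E2-KO against WT, and WT lacks Mx1-Cre, so the recombinase cannot be told apart from the deletion in the second change.

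The difference was positive in 6 genes. It was 8.55 for the stefin gene Stfa2l1 and 8.06 for the stefin gene Gm5483, which was at 0.406, 0.0569 and 0.178 CPM in G12D, 6.78, 1.19 and 13.5 CPM in G12D_E2-KO, 0.475, 0.085 and 0.205 CPM in WT and 0.0526, 0 and 0 CPM in E2-KO. The E2-KO libraries held 0 UMIs of Stfa2l1 and 1 of Gm5483 together, so both fitted sizes depend on the prior count and are neither measured folds nor bounds. It was 6.16 for Gm12802, which stood at 2.08, 1.65 and 2.87 CPM in WT and 1.53, 1.85 and 1.42 CPM in E2-KO, so that the G12D libraries were the ones near 0, with 2 UMIs together, and this size too depends on the prior count. It was 3.34 for Scrg1, at 2.79, 1.02 and 2.08 CPM in G12D, 6.96, 2.15 and 9.59 CPM in G12D_E2-KO, 5.7, 4.69 and 5.28 CPM in WT and 1.42, 1.44 and 1.5 CPM in E2-KO. It was 2.78 for Selm, whose levels stand above.

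The difference was negative in 6 genes. It was -6.31 for Gm9726, at 1.17, 1.76 and 0.95 CPM in G12D, 0, 0.162 and 0.13 CPM in G12D_E2-KO, 0.119, 0.085 and 0.154 CPM in WT and 0.895, 0.881 and 0.317 CPM in E2-KO. It was -4.23 for Cd1d2 and -1.13 for Cap1. Pttg1, the securin that restrains chromosome separation, had -2.31, with 162, 102 and 152 CPM in G12D, 193, 159 and 130 CPM in G12D_E2-KO, 38.7, 37.5 and 29.1 CPM in WT and 215, 202 and 158 CPM in E2-KO, so the WT libraries were the low ones. Lyplal1 (-2.25) and Lyrm7 (-2.23) had the same pattern, with Lyrm7 at 10.8 to 18.3 CPM in G12D, 14 to 17.01 CPM in G12D_E2-KO, 2.97 to 4.16 CPM in WT and 11.4 to 21.2 CPM in E2-KO. With 1 of the 12 libraries left out in turn, Gm12802 kept its call in 7 fits, Gm5483 and Pttg1 in 6, Lyrm7 in 4, Gm9726 and Selm in 3, Cd1d2, Lyplal1, Scrg1 and Stfa2l1 in 2 and Cap1 in 1.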

How the results depend on the processing

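Over all cells, 175 genes were called. The number was 356 with DESeq2 (171 shared), 102 in a fit of the 6 libraries alone with the replicate block (90 shared), 46 in that fit without it (45 shared), and 3 with the cells as deposited, where matched cells stand in both groups. With 1 library left out it ran from 44 to 350. RLE size factors, no filter, no replicate block over 12 libraries, a term for sex, the raw similarity and leaving out globin and Late GN marker genes gave 172 to 232. The difference between backgrounds, with 12 genes called, gave 58 with DESeq2, 22 with no filter, 5 with no replicate block, 0 with the cells as deposited and 0 to 34 with 1 library left out. Within classes, 1006 pairs were called, against 635 with DESeq2, 638 with no replicate block, 1217 with the 6 libraries alone and the replicate block, and 393 to 1337 with 1 library left out. For class shares, 0 classes were called under each setting run, with 0 to 0 when 1 library was left out. Of the 49 named genes called over all cells, 0 changed direction in any setting, and of the 77 named genes not called, 32 did in at least 1. Counted as pairs of a single value and a setting, with 1 library left out 264 of 1734 pairs lost a call and 24 gained one, and in the other settings 142 of 1526 lost and 26 gained one. Apart from the fits with fewer samples, and the deposited cells, the cause was not tested.

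Libraries of the same number in both genotypes had correlations of their deviations of 0.497, 0.124 and 0.0216 over 7083 genes, and libraries of unlike number -0.314 to 0.205, so the like-numbered pairs were not all over 0.1. By the labels the number is a time point, and whether animals are shared is not given in the sources used here. The block for time point was part of the fit; without it 196 genes were called, 155 of them shared. In the fit of the 6 libraries with the block, BC100530, Bik, Cd1d2, Egr1, Hmga2, Hoxa10, Pdgfrb, Plagl1 and Rab27b were among the genes not called. Depth limits the low genes: 12 of the higher genes had 3 or fewer UMIs in all of G12D.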
